A study of Mus musculus with 4 samples.

Results

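The rod activation cascade is described here through 8 genes: Gnat1, Gnb1 and Gngt1, which encode the alpha, beta and gamma subunits of rod transducin, Pde6a, Pde6b and Pde6g, which encode the catalytic alpha and beta and the inhibitory gamma subunits of the rod phosphodiesterase, and Cnga1 and Cngb1, which encode the subunits of the cyclic nucleotide-gated channel. They were chosen by name for their place in the cascade from transducin to the channel, and all 8 were among the 20094 genes measured. Transcripts were counted cell by cell in whole retina of Abca4-/-Rdh8-/- mice (C57BL/6J), aged 6 weeks, in which retinal released by light builds up because the ABCA4 flippase and the enzyme RDH8 are missing. Every library pooled 4 retinae of 2 mice, and each group was 1 library, so no value below has a replicate.

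The rolipram group was given rolipram, which inhibits phosphodiesterase 4, at 2 mg/kg before white light of 10000 lux for 30 min, with retinae taken 1 day after light. The BC11-38 group received 2 mg/kg of BC11-38, an inhibitor of phosphodiesterase 11, under the same light and timing. The bleached vehicle group received DMSO, the solvent of both drugs, with the same light and timing, and the unbleached vehicle group received DMSO without bleaching. Both knockouts are carried by all 4 groups, so no wild-type retina serves as a baseline. The files held 7894, 6143, 6809 and 5697 cells for rolipram, BC11-38, bleached vehicle and unbleached vehicle, with 28983626 to 44386442 unique molecular identifiers (UMIs, counted transcript molecules) per library.

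In the dark, channels held open by cyclic GMP let current into the rod outer segment. After light, transducin takes up GTP, and its alpha subunit leaves the beta and gamma pair and lifts the inhibitory gamma subunit from the phosphodiesterase, and the falling cyclic GMP lets the channels close. Cones run the same cascade with their own subunits, encoded by Gnat2, Gnb3, Gngt2, Pde6c, Pde6h, Cnga3 and Cngb3.

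Cells were clustered without the 8 genes and named from other markers. Of the 5 rod clusters, 4 carried all 8 rod markers, among them Nrl, Nr2e3, Sag, Reep6, Slc24a1, Esrrb and Rom1. The rods numbered 2637, 2293, 2491 and 2371 in the rolipram, BC11-38, bleached vehicle and unbleached vehicle libraries, with a median of 1214, 1396, 1346 and 1488 UMIs per rod. Cluster 3, the shallowest, had a median of 832 UMIs and carried 7 of the markers, without Esrrb. Clusters 3 and 5 were under 0.333 of the median depth of their libraries and kept the name because a rod marker was among their 10 leading genes. Cluster 3 held 236, 88, 601 and 592 rods in the same order, and the main counts are given without it too. Across libraries, 92 barcodes occurred in 2 libraries each. The bleached vehicle library stood apart in sex-linked transcripts: Xist was seen in 0.176% of its cells, against 48.1% to 51.6% in the other libraries.

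Promoters are shown for 4 of the genes, chosen from the 5 with an entry in the promoter table. They were chosen because they were read in different places outside rods. Gnb1 was read in many cell classes, and Gngt1 in cones and in subsets of bipolar cells. Cngb1 was read in subsets of bipolar cells, and Pde6b near the level of free rod RNA throughout. Each promoter runs from 250 bases before to 50 bases after the RefSeq start on build GRCm38.p6, read in the direction of transcription. Capitals mark TAATCC or its reverse complement GGATTA, the core of the site bound by the photoreceptor factor Crx and its relative Otx2, and TGCTGA or its reverse complement TCAGCA, the core of the site bound by the rod factor Nrl and other Maf proteins. Both strands were searched, and the matches do not overlap.
Gnb1, chr4:155491111-155491410, plus strand: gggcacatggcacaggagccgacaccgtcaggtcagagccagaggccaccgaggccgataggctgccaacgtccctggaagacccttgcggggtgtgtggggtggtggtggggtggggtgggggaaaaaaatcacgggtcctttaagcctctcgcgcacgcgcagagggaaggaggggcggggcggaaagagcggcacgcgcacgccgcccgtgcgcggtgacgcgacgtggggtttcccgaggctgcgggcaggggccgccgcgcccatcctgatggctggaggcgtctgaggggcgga
Gngt1, chr6:3993758-3994057, plus strand: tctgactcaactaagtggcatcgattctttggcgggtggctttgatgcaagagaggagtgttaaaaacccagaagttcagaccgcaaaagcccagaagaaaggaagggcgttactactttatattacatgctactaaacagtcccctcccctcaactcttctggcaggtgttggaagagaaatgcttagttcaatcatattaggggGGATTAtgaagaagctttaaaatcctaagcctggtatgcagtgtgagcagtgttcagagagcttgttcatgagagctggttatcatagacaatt
Pde6b, chr5:108388123-108388422, plus strand: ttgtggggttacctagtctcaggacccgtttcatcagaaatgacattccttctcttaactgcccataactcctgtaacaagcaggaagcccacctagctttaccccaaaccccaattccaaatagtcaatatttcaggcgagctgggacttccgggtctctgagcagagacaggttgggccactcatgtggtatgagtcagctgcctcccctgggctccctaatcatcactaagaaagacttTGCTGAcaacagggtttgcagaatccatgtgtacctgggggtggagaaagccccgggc
Cngb1, chr8:95306536-95306835, minus strand: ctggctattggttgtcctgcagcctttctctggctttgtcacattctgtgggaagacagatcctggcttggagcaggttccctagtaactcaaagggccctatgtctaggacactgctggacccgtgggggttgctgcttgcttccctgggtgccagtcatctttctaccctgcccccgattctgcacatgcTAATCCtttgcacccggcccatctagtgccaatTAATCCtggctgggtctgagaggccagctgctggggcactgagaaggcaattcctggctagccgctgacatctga

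The Gnb1 promoter held 31 CG dinucleotides, more than 89.4% of the 32851 mouse promoters in the table, and neither motif. The Gngt1, Pde6b and Cngb1 promoters held 4 CG dinucleotides each, and 31.4% of all promoters held fewer. TAATCC or its complement occurred 1 time in the Gngt1 promoter, starting 44 bases before the start, and 2 times in the Cngb1 promoter, at 58 and 25 bases before it. TGCTGA occurred 1 time in the Pde6b promoter, 8 bases before the start. Of all promoters of this length, 7.06% held TAATCC and 19.5% held TGCTGA on either strand, so single matches are frequent and are given as letters only. The Cnga1 promoter, matched as the fifth member, held TAATCC 1 time, 228 bases before the start.

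On build GRCm38 the 8 genes lie on 7 chromosomes, all as protein-coding genes. Gnat1 spans chr9:107674474-107679712 and Pde6g spans chr11:120447605-120453500, both on the minus strand. Pde6a spans chr18:61220315-61289924 on the plus strand and Cnga1 spans chr5:72603696-72644275 on the minus strand, on the same chromosome as Pde6b. Processed pseudogenes overlap Gnb1 and Pde6a on the opposite strand and Cnga1 on the same strand, and none of these 3 was in the gene table, so their part in the counts was not tested.

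In rods, every activation gene was lowest in the bleached vehicle library and highest in the BC11-38 library. Together the 8 genes made up 2.80%, 3.10%, 1.93% and 2.49% of rod UMIs in the rolipram, BC11-38, bleached vehicle and unbleached vehicle libraries. Levels below are UMIs per 1000000 rod UMIs (CPM) of a library. They come from tags at transcript ends, which count molecules and do not scale with transcript length. Intervals are exact 95% intervals for counting error and hold no variation between mice.

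Mitochondrial transcripts made up 3.99%, 4.27%, 3.10% and 4.01% of rod UMIs in the rolipram, BC11-38, bleached vehicle and unbleached vehicle libraries, lowest and highest in the same libraries as the 8 genes. Summed markers of Müller glia, astrocytes and bipolar cells in rods were highest in the library that was lowest in the 8 genes. The 10 Müller markers summed to 379, 355, 593 and 363 CPM in rods of the rolipram, BC11-38, bleached vehicle and unbleached vehicle libraries, with none at 0. Of these markers, Glul and Dkk3 were highest with BC11-38 instead. The 6 astrocyte markers summed to 6.11, 2.20, 39.0 and 12.4 CPM, with 1, 3, 1 and 1 of them at 0. Among them Igf2 was highest with rolipram instead. The 11 microglia markers were not highest there, at 12.5, 9.92, 9.69 and 9.79 CPM, with 3, 7, 2 and 4 of them at 0. The 12 bipolar markers summed to 828, 848, 968 and 729 CPM, with none at 0. Among them Otx2 was highest with rolipram, at 310 CPM against 285 CPM in bleached vehicle. Prkca, at 278 CPM against 223 CPM in bleached vehicle, and Vsx1 were highest with BC11-38. Leaving mitochondrial transcripts out of the total changed the direction of none of the 8 genes in any of the 4 comparisons. At 3.10% to 4.27% of rod UMIs they were too few to turn any direction, so nothing is read from this. The part of glial and bipolar RNA in the levels of the 8 genes was not tested.

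Gnat1, the subunit that binds GTP, had 4382, 4553, 2802 and 3694 CPM in rods of the rolipram, BC11-38, bleached vehicle and unbleached vehicle libraries. Gnb1, which pairs with the gamma subunit and is shared with many other G proteins, had 5969, 6223, 3097 and 4129 CPM in the same order. Gngt1, the lipid-carrying gamma subunit, had 6782, 7969, 5579 and 7027 CPM. For Gnat1 and Gnb1 both drug libraries lay above the unbleached vehicle library, whereas for Gngt1 rolipram lay below it and BC11-38 above it.

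Pde6a, a catalytic subunit, had 1926, 2019, 1418 and 1635 CPM in rods of the rolipram, BC11-38, bleached vehicle and unbleached vehicle libraries. Pde6b, its catalytic partner and the gene mutated in the rd1 mouse, had 2089, 2248, 1351 and 1654 CPM. Pde6g, the inhibitory subunit, had 4053, 4681, 2816 and 4014 CPM. The catalytic genes were above unbleached vehicle in both drug libraries. Pde6g was above it with BC11-38, while its rolipram interval, 3989 to 4118 CPM, overlapped that of unbleached vehicle, 3953 to 4075 CPM.

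Cnga1, the subunit that can form a channel alone, had 1873, 2210.0, 1403 and 1781 CPM in rods of the rolipram, BC11-38, bleached vehicle and unbleached vehicle libraries. Cngb1, the modulating subunit, was the lowest member in every library, at 933, 1073, 798 and 999 CPM. Between rolipram and unbleached vehicle the channel genes went opposite ways by small amounts. The Cnga1 interval was 1829.7 to 1917 CPM with rolipram, above that of unbleached vehicle at 1741 to 1822 CPM, and the Cngb1 interval, 903 to 965 CPM with rolipram, lay below that of unbleached vehicle at 969 to 1029.5 CPM.

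**Figure D1:**
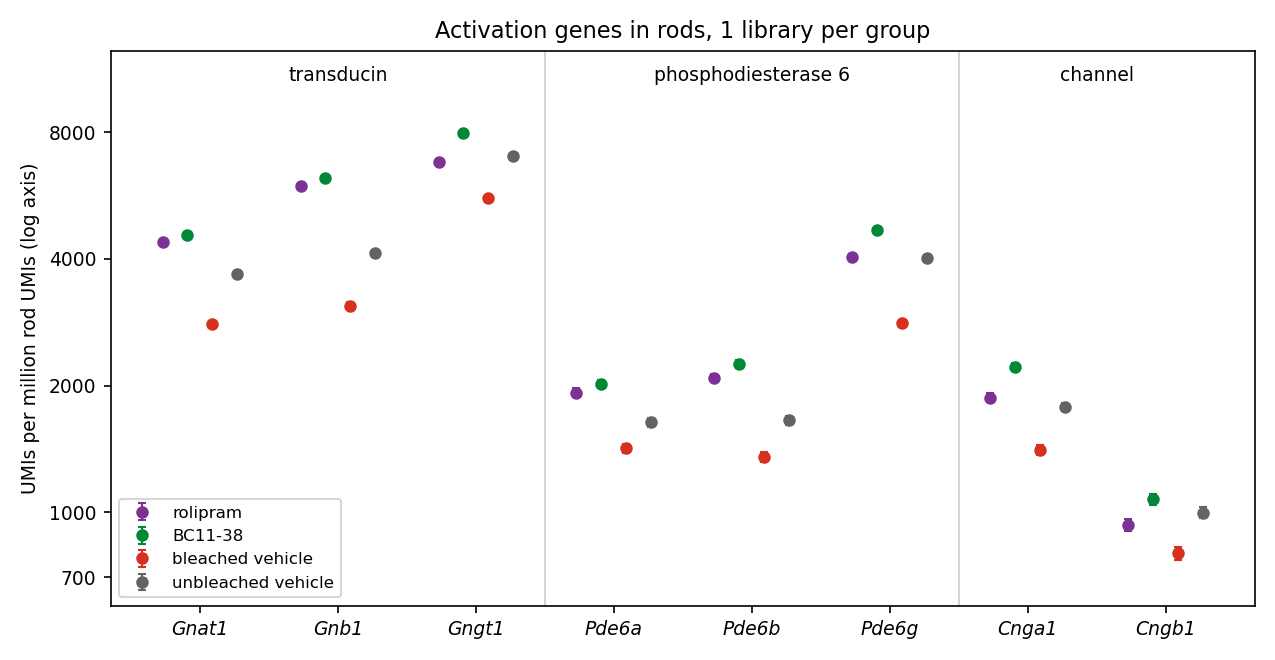
Levels of the 8 activation genes in rods, in CPM on a log axis, with 1 point per library and exact 95% counting intervals. In each of the 8 genes the bleached vehicle point is the lowest and the BC11-38 point the highest; Gngt1 is the most abundant member and Cngb1 the least in all 4 libraries.

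Bleached vehicle rods held less of all 8 transcripts than unbleached vehicle rods. The log2 ratios ranged from -0.51 for Pde6g to -0.21 for Pde6a, with a median of -0.34, against a median of 0.10 over the 8588 genes with at least 100 UMIs in the 2 libraries. Pde6g was at 0.702 times its unbleached level (0.685 to 0.719), Gnb1 at 0.750 (0.733 to 0.768) and Pde6a at 0.867 (0.837 to 0.899). None of the 8 reached a 1.5-fold difference. The shares of all genes past that threshold were 0.722% lower and 6.47% higher. Over all genes counted, 3006 of 8588 lay below 0. Of the 83 genes with at least as many UMIs as the lowest member, the 8 included, 53 lay below 0, with a median of -0.13. Of 6 other rod genes, 6 did, with a median of -0.36. Scaling by a trimmed mean of log ratios, which shifted this comparison by 0.13, left all 8 below 0 with 1 member, Pde6g, past 1.5-fold.

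Rolipram rods held more of all 8 transcripts than bleached vehicle rods. Gnb1 was 1.93-fold higher (1.88 to 1.97), Gnat1 1.56-fold (1.53 to 1.60) and Pde6b 1.55-fold (1.49 to 1.60). These 3 of 8 members were at least 1.5-fold higher, against 2.04% of the 8521 genes counted, while 8.46% of genes were at least 1.5-fold lower. The remaining 5 were 1.17-fold (Cngb1) to 1.44-fold (Pde6g) higher, and the median log2 ratio of the 8 was 0.48, against -0.11 over all genes counted. Closer lists were higher too. Of the 87 genes with at least as many UMIs as the lowest member, 8 were at least 1.5-fold higher, with a median of 0.20. The 87 include the 8 members themselves, and the 8 past the threshold include the 3 members named above. Of 6 other rod genes, 5 were at least 1.5-fold higher, with a median of 0.70. Restricted to rods carrying Y-linked but no Xist transcripts, 1 member instead of 3 was past 1.5-fold. Scaling by a trimmed mean, a shift of -0.13 here, took Pde6g past 1.5-fold as well, at a log2 ratio of 0.65.

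BC11-38 rods likewise held more of all 8 transcripts than bleached vehicle rods. Gnb1 was 2.01-fold higher (1.96 to 2.05), Pde6b 1.66-fold (1.61 to 1.72), Pde6g 1.66-fold (1.62 to 1.70), Gnat1 1.62-fold (1.59 to 1.66) and Cnga1 1.57-fold (1.52 to 1.63). These 5 of 8 were at least 1.5-fold higher, against 3.46% of the 8371 genes counted, with 14.4% at least 1.5-fold lower. Gngt1, Pde6a and Cngb1 were 1.43-fold, 1.42-fold and 1.34-fold higher, and the median log2 ratio of the 8 was 0.68, against -0.16 over all genes. Of the 81 genes with at least as many UMIs as the lowest member, 16 were at least 1.5-fold higher, with a median of 0.25. The 81 include the 8 members themselves, and the 16 include the 5 members named above. Of the 6 other rod genes, 4 were at least 1.5-fold higher, with a median of 0.68. Scaling by a trimmed mean, a shift of -0.18 here, took the number past 1.5-fold to 8. Both drug comparisons use the same bleached vehicle library, so their likeness is not independent.

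Set directly against each other, rolipram rods held less of each member than BC11-38 rods. The log2 ratios ran from -0.24 for Cnga1 to -0.06 for Gnat1, with a median of -0.15 against 0.05 over the 8128 genes counted. None of the 8 was past 1.5-fold. The shares of all genes past it were 4.22% higher and 1.38% lower. Over all genes counted, 3408 of 8128 lay below 0. Of the 73 genes with at least as many UMIs as the lowest member, the 8 included, 40 lay below 0, with a median of -0.04. Of 6 other rod genes, 3 did, with a median of -0.01. Cnga1, Gngt1 and Pde6g, at 0.848, 0.851 and 0.866 times the BC11-38 level, differed most. All 8 counting intervals lay below 1, the highest bound being 0.986 for Pde6a.

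**Figure D2:**
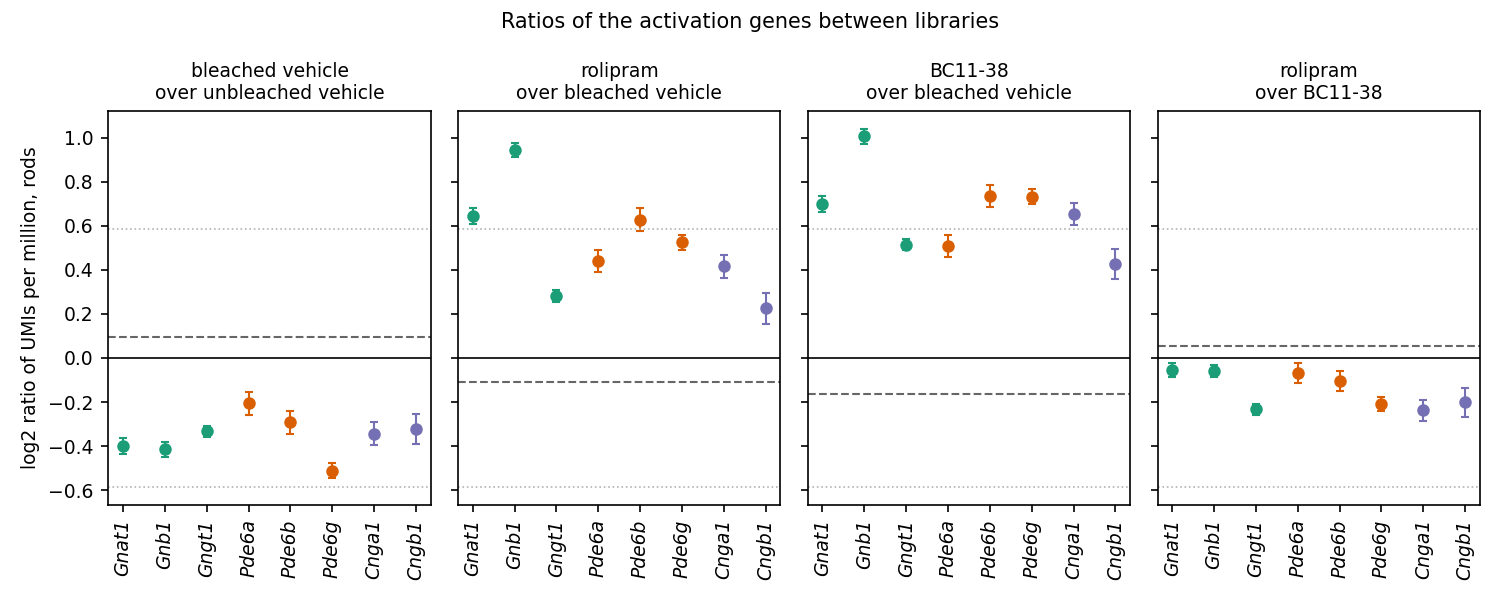
Log2 ratios of the 8 activation genes in rods for the 4 comparisons, with exact 95% counting intervals; green marks transducin, orange the phosphodiesterase and violet the channel, dashed lines the median of all genes counted and dotted lines a 1.5-fold difference. All 8 points lie below 0 for bleached over unbleached vehicle and for rolipram over BC11-38, and above 0 for each drug over bleached vehicle, where Gnb1 is the highest point.

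Summed by complex, the members shifted in the same direction in all 3 complexes. In bleached vehicle rods, summed transducin, phosphodiesterase and channel CPM stood at 0.773, 0.765 and 0.792 times the unbleached vehicle level. With BC11-38 they were 1.63-fold, 1.60-fold and 1.49-fold above bleached vehicle. With rolipram they were 1.49-fold, 1.44-fold and 1.27-fold above bleached vehicle, the channel pair being the lowest of the 3. The counting interval with rolipram was 1.24 to 1.31 for the channel, apart from that of transducin at 1.47 to 1.51.

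Within transducin the balance of subunit transcripts differed between the drug and vehicle libraries. Rods held 0.8801, 0.781, 0.555 and 0.588 Gnb1 UMIs per Gngt1 UMI in the rolipram, BC11-38, bleached vehicle and unbleached vehicle libraries, with the widest counting interval from 0.864 to 0.896. Gnat1 UMIs per Gnb1 UMI were 0.734, 0.732, 0.905 and 0.895 in the same order. The drug libraries thus had more beta transcript relative to both partners than either vehicle library, and the counting intervals of drug and vehicle libraries did not overlap.

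Within the phosphodiesterase, the 2 catalytic transcripts stayed near parity, with 0.922, 0.898, 1.05 and 0.988 Pde6a UMIs per Pde6b UMI in rolipram, BC11-38, bleached vehicle and unbleached vehicle rods. Pde6g UMIs per Pde6b UMI were 1.94, 2.08, 2.08 and 2.43, highest without bleaching. Cnga1 UMIs per Cngb1 UMI were 2.01, 2.06, 1.76 and 1.78, higher in the drug libraries, whose counting intervals did not overlap those of the vehicle libraries. The assembled channel holds more CNGA1 than CNGB1 subunits; transcript ratios do not measure protein.

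Many rods carried the whole cascade. At least 1 UMI of all 8 genes was seen in 44.4%, 54.3%, 30.5% and 46.5% of rolipram, BC11-38, bleached vehicle and unbleached vehicle rods. After each rod was thinned to 1000 UMIs, leaving out 745, 671, 710 and 702 shallower rods, the shares were 30.3%, 37.9%, 15.6% and 26.1%. Both orders put bleached vehicle lowest, while rolipram stood below unbleached vehicle before thinning and above it after. Thinned, Gngt1 was seen in 96.4% to 99.4% of rods over the 4 libraries and Cngb1 in 53.9% to 63.2%.

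Rod clusters differed in these genes, and the libraries filled the clusters unequally. Clusters 5 and 16, with Nr2e3 and Pdc among their leading genes, held 1966 of the 2637 rolipram rods and 2195 of the 2293 BC11-38 rods, but 263 of the 2491 bleached vehicle rods and 1059 of the 2371 unbleached vehicle rods. Gnb1 stood at 5249 and 6484 CPM in clusters 5 and 16, at 3521 CPM in cluster 0, led by Rp1, March1 and Cplx4, at 2809 CPM in the shallow cluster 3, and at 2174 CPM in cluster 9, led by the interferon-induced genes Irf7 and Bst2. Cluster 9 was the lowest of the 5 in 7 of the members, with Gnat1 at 2262 CPM, and cluster 3 was the lowest in Pde6g, at 2462 CPM. These levels describe clusters built from the same cells and are not tested.

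Library differences varied with the cluster. In cluster 16, Gnb1 had 6856, 6784, 5217 and 5791 CPM in the rolipram, BC11-38, bleached vehicle and unbleached vehicle libraries, with 814, 1162, 149 and 569 rods. Gnat1 in this cluster had 4907, 4896, 4445 and 4696 CPM. The bleached vehicle rods of cluster 16 were again the lowest in all members but Gngt1, which had 7469, 8645, 7651 and 8516 CPM and was lowest with rolipram. For Gnat1 and Pde6b their counting interval overlapped that of unbleached vehicle, and for Pde6a and Cngb1 those of every other library. Cluster 5, with 1152, 1033, 114 and 490 rods, did not keep that order. Gnat1 had 4215, 3874, 4136 and 3611 CPM there and Gnb1 had 5933, 5113, 4529 and 4059.8 CPM, both lowest in unbleached vehicle. Gngt1 had 6683, 6622, 8252 and 6039 CPM and Pde6g had 3962, 3580.0, 4023 and 3452 CPM in cluster 5, both highest in bleached vehicle, while Pde6a and Pde6b were lowest in bleached vehicle. Counting intervals of bleached vehicle there overlapped those of unbleached vehicle for Pde6a and Pde6b, and that of rolipram for Pde6g. The Gnat1 intervals of unbleached vehicle and BC11-38 overlapped too.

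The shallow cluster 3 followed the order of all rods, with bleached vehicle lowest and BC11-38 highest in each of the 8 members. BC11-38 had 88 rods there, and its counting intervals overlapped those of rolipram in all members but Pde6a. Intervals of bleached vehicle overlapped those of unbleached vehicle for Pde6a and Pde6b, and those of both drug libraries for Cngb1. Gnb1 had 3903, 4334, 2306 and 2685 CPM there in the rolipram, BC11-38, bleached vehicle and unbleached vehicle libraries, and Gnat1 had 2857, 3393, 1849.9 and 2323 CPM. Cluster 0 held 10 BC11-38 rods, too few for a value. With 434, 1378 and 660 rods in it, Gnb1 had 4802 CPM with rolipram, 3121 CPM in bleached vehicle and 3537 CPM in unbleached vehicle. Bleached vehicle was the lowest of these 3 in all members but Cngb1, at 791, 814 and 929 CPM in the same order. For Pde6a and Pde6b the counting interval of bleached vehicle overlapped that of unbleached vehicle. In cluster 9, of 249 and 60 bleached and unbleached vehicle rods, Gnb1 had 2191 and 2116 CPM and Gnat1 2135 and 2635 CPM. Leaving out cluster 9 or cluster 3 changed the direction of none of the 8 members in any of the 4 comparisons. Without cluster 3 the counts past 1.5-fold stayed at 3 with rolipram and 5 with BC11-38 over bleached vehicle.

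The beta subunit of the cone cascade, Gnb3, ran opposite to Gnb1 in rods. Gnb3 had 321, 85.4, 1055 and 604 CPM in rods of the rolipram, BC11-38, bleached vehicle and unbleached vehicle libraries. It was 1.75-fold higher in bleached than in unbleached vehicle rods (1.66 to 1.84), at 0.304 times the bleached vehicle level with rolipram (0.285 to 0.324) and at 0.0810 times that level with BC11-38 (0.0719 to 0.0909). Rolipram rods held 3.75-fold more Gnb3 than BC11-38 rods (3.31 to 4.27). Gnb3 UMIs per Gnb1 UMI were 0.0537, 0.0137, 0.341 and 0.146.

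Gnb3 was also seen in different shares of rods. At 1000 UMIs per rod, 19.8%, 7.83%, 56.3% and 35.1% of rolipram, BC11-38, bleached vehicle and unbleached vehicle rods had a Gnb3 UMI; unthinned, the shares were 26.1%, 11.6%, 66.9% and 45.9%. In amacrine cells, taken as a background, 3.71%, 2.43%, 6.90% and 4.10% of thinned cells had one. The same order of CPM held inside cluster 16, at 138, 75.8, 325 and 227 CPM, inside cluster 5, at 173, 98.9, 525 and 284 CPM, and inside the shallow cluster 3, at 507, 138, 935 and 637 CPM.

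The size of the Gnb3 difference depended on the cluster. In cluster 0, which held 1378 of the 2491 bleached vehicle rods, Gnb3 had 951 CPM with rolipram, 1174 CPM in bleached vehicle and 986 CPM in unbleached vehicle, a narrower range than in all rods. In cluster 9, Gnb3 had 1243 and 1119.6 CPM in bleached and unbleached vehicle rods, with overlapping counting intervals. The libraries thus differed both in how their rods were spread over clusters and, in some clusters, within them.

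Other cone transcripts stood far lower in rods, relative to their level in cones. Gnb3 in rods stood at 7.60%, 2.25%, 24.3% and 15.2% of its level in cones of the same library, for rolipram, BC11-38, bleached vehicle and unbleached vehicle. For Gnat2, the cone transducin alpha subunit, the same percentages were 0.712%, 0.609%, 0.494% and 0.399%, and over all 6 other cone counterparts the highest value in any library was 1.19%, for Cngb3 in bleached vehicle. The 7 cone markers other than Gnb3 summed to 248, 275, 209 and 152 CPM in rods, with none at 0 in any library. Grm6, Trpm1 and Gng13, markers of ON bipolar cells, which also use Gnb3, were at 0.849% to 3.73% of their bipolar level in rods, while Gnb3 in rods was at 24.8%, 8.25%, 50.5% and 45.9% of its bipolar level. Of the 12 bipolar markers, Otx2, at 59.1% to 68.6%, and Prkca, at 24.4% to 29.3%, were also high in rods, without the differences between libraries seen for Gnb3.

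Outside rods, Gnb3 differed less between libraries. Cones had 4218, 3788, 4342 and 3966 CPM of Gnb3 in the rolipram, BC11-38, bleached vehicle and unbleached vehicle libraries. Bipolar cells had 1293, 1035, 2089.8 and 1315 CPM, again highest in bleached vehicle. Restricted to rods carrying Y-linked but no Xist transcripts, the log2 ratio of bleached over unbleached vehicle was 0.35, against 0.80 in all rods; the drug ratios over bleached vehicle were -1.50 for rolipram and -3.79 for BC11-38.

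**Figure D3:**
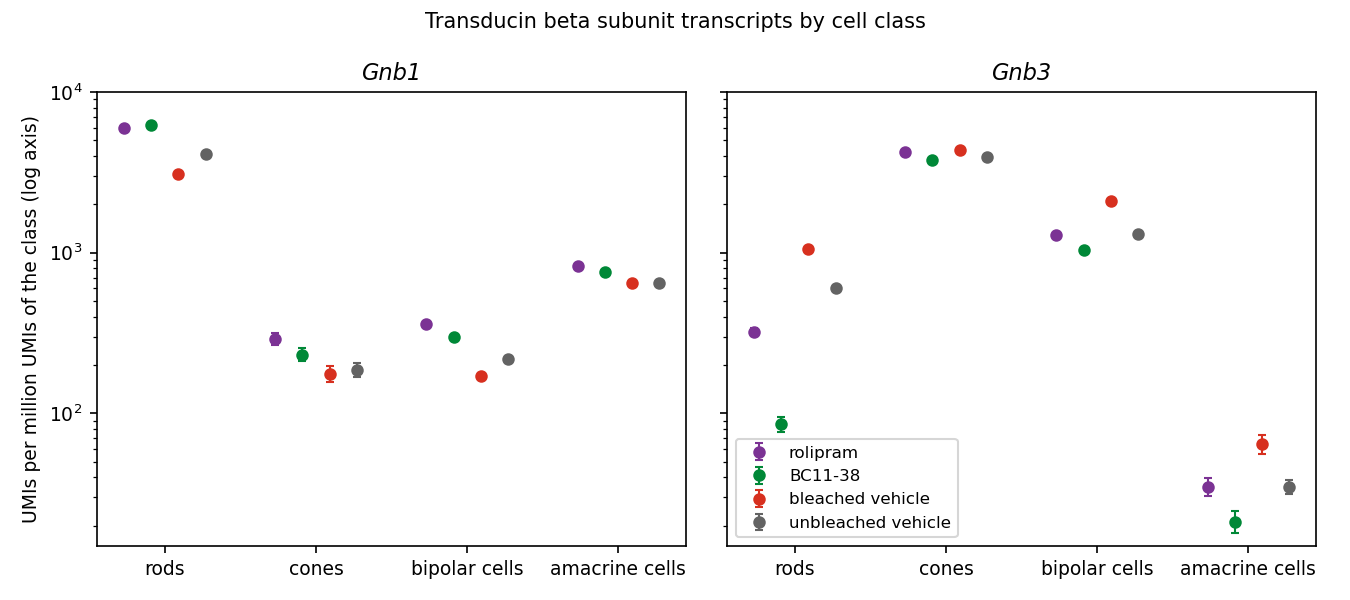
CPM of the beta subunit genes Gnb1 and Gnb3 in 4 cell classes on a log axis, with 1 point per library and exact 95% counting intervals. In rods the libraries with the highest Gnb1 have the lowest Gnb3, with Gnb3 at 85.4 CPM in BC11-38 and 1055 CPM in bleached vehicle, while cones lie between 3788 and 4342 CPM.

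Other genes of the cascade were read from lists. Of 12 genes for shutting off the response and for calcium feedback, 12 lay below unbleached vehicle in bleached vehicle rods, 1 of them past 1.5-fold: Guca1a, a guanylate cyclase activator, at 0.662 times, beside 0.722% of all genes. With rolipram 1 of 12 was at least 1.5-fold above bleached vehicle, Pdc, the transducin beta-gamma binding protein phosducin, at 1.58-fold, beside 2.04% of all genes. With BC11-38 5 of 12 were, beside 3.46% of all genes, among them Guca1a at 1.84-fold, Gucy2f, a guanylate cyclase, at 1.75-fold and Pdc at 1.73-fold. The list medians were -0.28, 0.34 and 0.54 on the log2 scale, for bleached over unbleached vehicle, rolipram over bleached vehicle and BC11-38 over bleached vehicle, nearer 0 than the medians of the 8 members.

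A further list held 10 genes for assembling and transporting the cascade proteins, of which 9 had enough UMIs to be counted. None of the 9, which include Aipl1, the phosphodiesterase chaperone, and Unc119 and Pde6d, the carriers of lipid-modified subunits, was past 1.5-fold in any of the 4 comparisons. Their median log2 ratio was -0.04 for bleached over unbleached vehicle, -0.21 for rolipram over bleached vehicle and -0.11 for BC11-38 over bleached vehicle. Of 10 outer segment genes, none was past 1.5-fold for bleached over unbleached vehicle. Impg2, a matrix proteoglycan, was lower with rolipram (0.444 times) and with BC11-38 (0.344 times) than in bleached vehicle, and Rom1, a disc rim protein, was 1.55-fold higher with BC11-38. These counts of 1 lower of 10 with rolipram, and 1 higher and 1 lower of 10 with BC11-38, are near the shares of all genes (8.46% lower with rolipram, 3.46% higher and 14.4% lower with BC11-38).

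Transcription factors of photoreceptors fell into different orders across the libraries. Nrl, the rod fate factor, had 1535, 1880.5, 917 and 1244 CPM in rolipram, BC11-38, bleached vehicle and unbleached vehicle rods, and Nr2e3, its partner, had 1656, 1644, 1003 and 1314 CPM. Both were lowest in bleached vehicle, like the 8 members. Crx had 704, 682, 693 and 645 CPM, a narrower range, and Neurod1 had 1960.4, 1616, 3367 and 2713 CPM, highest in bleached vehicle.

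Of 14 other G protein subunit genes, 9 had enough UMIs in rods for the comparisons with bleached vehicle. For bleached over unbleached vehicle 7 of the 9 lay above 0, 3 of them past 1.5-fold, beside 6.47% of all genes, with a median log2 ratio of 0.43 against 0.10 over all genes. Over bleached vehicle, 3 were at least 1.5-fold lower with rolipram, beside 8.46% of all genes, and 3 with BC11-38, beside 14.4%. The medians were -0.39 and -0.42, against -0.11 and -0.16 over all genes. The genes below 0 in bleached over unbleached vehicle were Gnb5 and Gnas, and the 1 past 1.5-fold higher with BC11-38 was Gnb5. Gnb5, the beta subunit that works with Rgs9 in shutting off the response, had 739, 917, 584 and 790.2 CPM in rolipram, BC11-38, bleached vehicle and unbleached vehicle rods, lowest in bleached vehicle like the members. Gnb2, another broadly used beta subunit, had 12.2, 8.82, 43.2 and 26.8 CPM, in the order of Gnb3 rather than Gnb1, at levels far below either.

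Across 26 combinations of cell class and library with at least 50 cells, the 10 genes most like the mean of the 8 members in log2(CPM + 1) included Guca1b (Pearson r = 0.990), Susd3 (0.986), Pcmtd2 (0.982), Nrl (0.979), Nr2e3 (0.979), Cep164 (0.976), BC065403 (0.974), Wdr60 (0.974) and Tnrc6b (0.974), out of 5612 genes. The points share libraries and free rod RNA, so r is a description. Set against the mean of the other 7, the members themselves ranged from 0.995 for Pde6a to 0.652 for Gnb1, with Gngt1 at 0.796 and Pde6g at 0.829. The 3 lowest are the genes read most outside rods, described next.

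Every cell class held some RNA of all 8 genes, most of it near the level of free rod RNA. As a gauge of that level, 6 other rod genes were used, among them Nrl, Nr2e3, Slc24a1, Reep6 and Esrrb. They were expressed as a percentage of their rod level in the same library. All 6 were also among the rod markers used to name clusters. Their median was 4.14%, 3.96%, 5.04% and 3.995% in cones of the rolipram, BC11-38, bleached vehicle and unbleached vehicle libraries, and 3.71%, 2.62%, 3.92% and 2.48% in amacrine cells. Gnat1, Pde6b and Cnga1 stayed between 0.657 and 1.53 times this median in cones, bipolar cells and amacrine cells of all 4 libraries. Pde6a stood higher in cones, at 1.67 to 1.86 times it, or 6.60% to 9.15% of the rod level. In bipolar and amacrine cells Pde6a stood at 0.784 to 1.17 times it. The 6 did not all share 1 level: Reep6 stood at 1.70 to 2.07 times their median in cones and 2.22 to 3.60 times in Müller glia. Over all non-rod cells and the 7 members other than Gnb1, the level was 7.47%, 7.70%, 6.55% and 6.28% of that in rods. The 7 include Gngt1, Pde6g, Cngb1 and Pde6a, which stood above the median of the 6 other rod genes in some classes. This level is therefore not that of free rod RNA alone. Taken as a mean over cells, it was 10.2%, 10.4%, 11.2% and 9.63%, which puts bleached vehicle highest, so no order of libraries is read from it.

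Cones were the clear exception for Gngt1 and Pde6g. Gngt1 had 4264, 5358, 4143 and 5427 CPM in cones of the rolipram, BC11-38, bleached vehicle and unbleached vehicle libraries, or 62.9%, 67.2%, 74.3% and 77.2% of the rod level. Pde6g had 2665, 3042, 1452 and 2413 CPM, or 65.7%, 65.0%, 51.5% and 60.1%. Both stood at 10.2 to 19.3 times the median of the 6 other rod genes in cones, while Gnb1, at 176 to 291 CPM, stood at 0.942 to 1.18 times it.

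The order of libraries seen for Pde6g between each drug and bleached vehicle in rods was seen in cones too. Pde6g in cones was 2.10-fold higher with BC11-38 (2.00 to 2.20) and 1.84-fold higher with rolipram (1.75 to 1.93) than in bleached vehicle, and at 0.602 times (0.573 to 0.632) in bleached over unbleached vehicle. Gngt1 in cones was 1.29-fold higher with BC11-38 (1.26 to 1.33) and 1.03-fold higher with rolipram (0.996 to 1.06) than in bleached vehicle, and at 0.763 times (0.741 to 0.787) in bleached over unbleached vehicle. Cone numbers were 398, 363, 297 and 262 in rolipram, BC11-38, bleached vehicle and unbleached vehicle. Gnat2 moved the same way in cones, at 2763, 3078, 1430.5 and 2095 CPM, whereas Gnb3 did not.

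**Figure D4:**
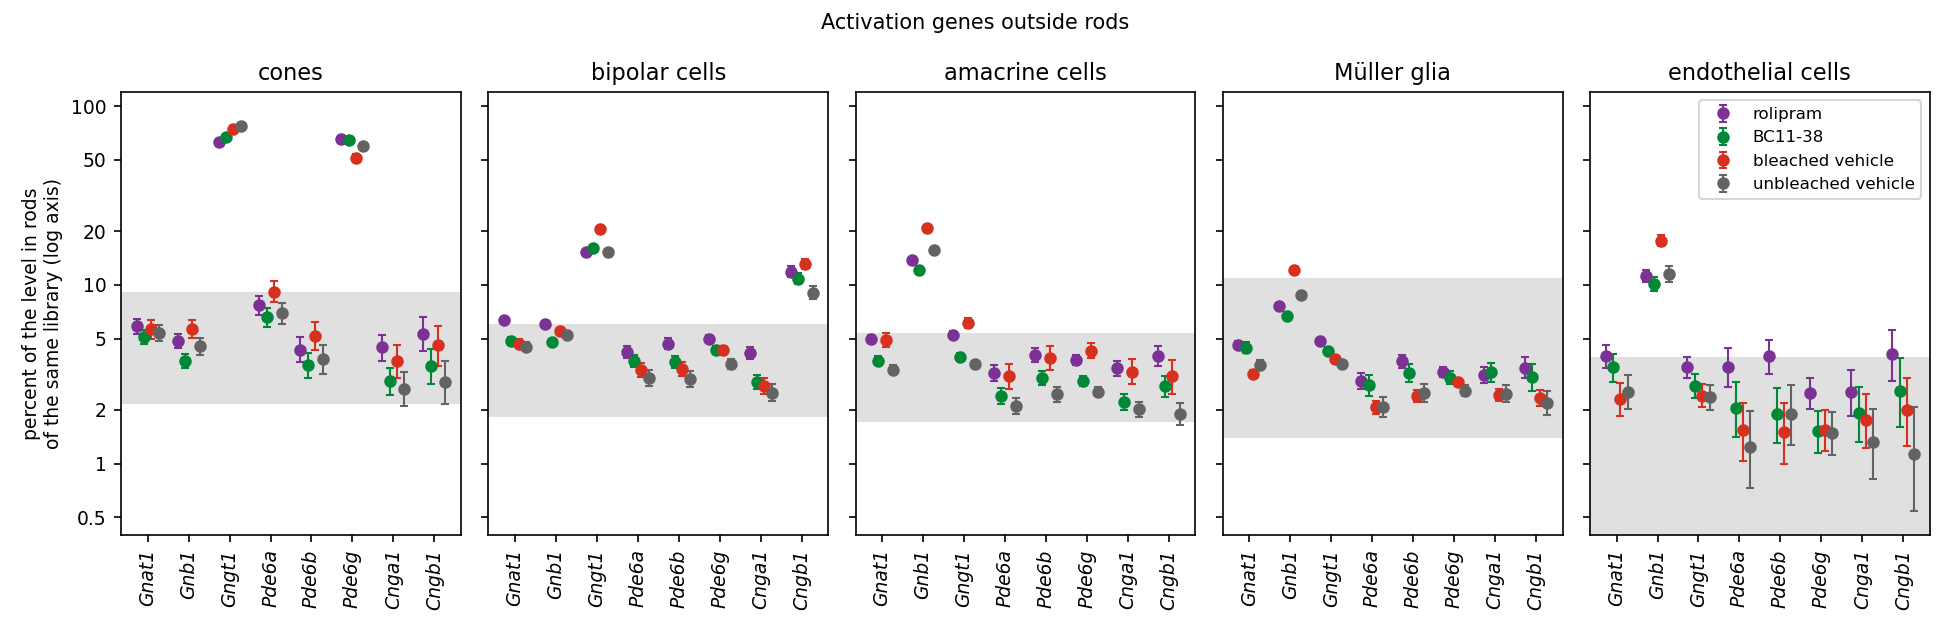
Level of each activation gene in 5 other cell classes as a percentage of its level in rods of the same library, on a log axis, with 1 point per library and exact 95% counting intervals; grey bands span the lowest to the highest percentage of 6 other rod genes over the 4 libraries, cut at the axis in endothelial cells. Gngt1 and Pde6g lie at 51.5% to 77.2% in cones, Gngt1 and Cngb1 above the band in bipolar cells, and Gnb1 above it in amacrine and endothelial cells.

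Gnb1 was the member found in most other classes. Amacrine cells had 821, 757, 644 and 651 CPM in the rolipram, BC11-38, bleached vehicle and unbleached vehicle libraries, 3.71 to 6.35 times the median of the 6 other rod genes. Ganglion cells, 41, 62, 14 and 63 in number, had 939, 864, 736 and 895 CPM. Müller glia had 362 to 454 CPM and horizontal cells 227 to 328 CPM over the 4 libraries. In bipolar cells, which carry Gnb3 at 1035 to 2089.8 CPM, Gnb1 as a class value lay nearer that median, at 1.37 to 1.79 times. By cluster it reached 2.43 to 4.51 times in cluster 24, led by Neto1, Ebf1 and Zfhx4, and 1.71 to 3.64 times in cluster 28, against 0.847 to 1.35 times in clusters 2, 15 and 18.

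Gngt1 and Cngb1 stood above that median in bipolar cells as a class. Gngt1 had 1029.7 to 1273 CPM there, 15.2% to 20.4% of the rod level, and Cngb1 had 90.4 to 116 CPM, 9.05% to 13.1%. These transcripts were concentrated in some bipolar clusters.

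Gngt1 was highest in cluster 15, led by Cntn5, Pcp2 and Gng13, with 3316, 4966, 3602 and 4217 CPM in the rolipram, BC11-38, bleached vehicle and unbleached vehicle libraries. Cluster 28, led by Gsg1, Slit2 and Scgn, had 2065 to 2433 CPM, and cluster 7, led by Gsg1, Otor and Grik1, had 1527 to 1734 CPM. In these 3 clusters Gngt1 stood at 5.63 to 17.8 times the median of the 6 other rod genes. In the other 5 bipolar clusters it stood at 1.08 to 2.23 times, below these 3 in all 4 libraries.

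Cngb1 followed a different set of clusters. It was 3.54 to 7.26 times the median of the 6 other rod genes in cluster 15 and in cluster 18, led by Vsx1, Gng13 and Reln, with 164 to 242 CPM. In clusters 2, 7 and 28 it stood at 2.10 to 4.50 times, at 76.8 to 126 CPM. Cluster 2, led by Pcp2, Trpm1 and Gng13, was the largest bipolar cluster. In clusters 6, 24 and 26 Cngb1 stood at 0.496 to 1.62 times. Cnga1, the partner subunit, stayed at 0.793 to 0.951 times the median in bipolar cells as a class.

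**Figure D5:**
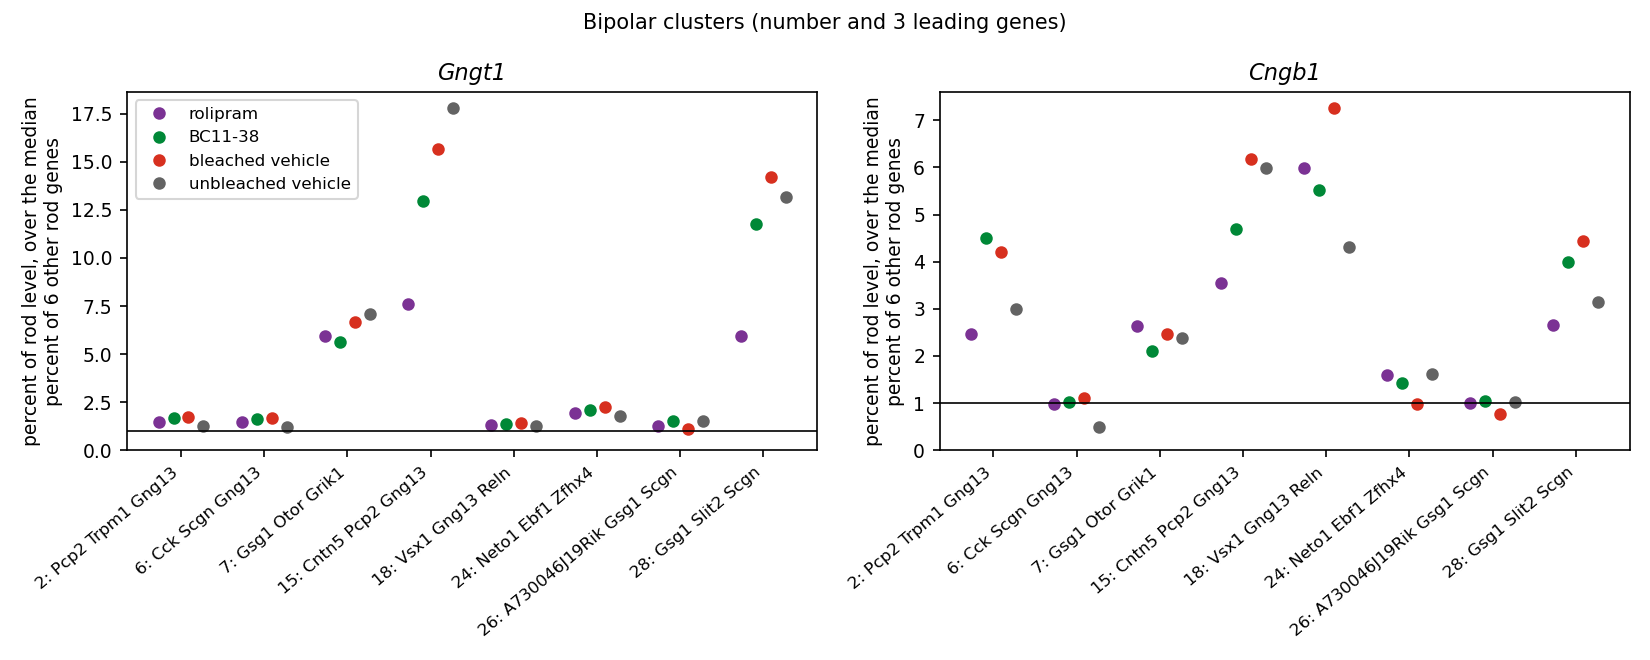
Gngt1 and Cngb1 in 8 bipolar clusters, as the percentage of the rod level divided by the median percentage of 6 other rod genes, with 1 point per library; the line at 1 marks that median. Gngt1 reaches 5.63 to 17.8 in clusters 7, 15 and 28, and Cngb1 reaches 2.10 to 7.26 in clusters 2, 7, 15, 18 and 28, while clusters 6, 24 and 26 stay at or below 2.23 for both.

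Pde6g in bipolar cells was highest in cluster 7, at 2.24 to 2.84 times and 327 to 442 CPM, the other bipolar clusters lying at 0.792 to 1.70 times. Cells outside the rods were also set against the 5th percentile of rods in summed members, with Gnb1 left out. Of cones, 10.8%, 18.7%, 46.5% and 49.6% in the rolipram, BC11-38, bleached vehicle and unbleached vehicle libraries reached it. In the same order, 0.763%, 1.23%, 6.63% and 2.23% of bipolar cells did. The percentile itself differed, at 106, 112, 57.8 and 81.3 UMIs per 10000 UMIs of the cell, and was lowest in bleached vehicle.

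Within rods, the members varied together weakly. Across thinned rods the highest correlation of any pair, Gngt1 with Pde6g, was 0.346, 0.386, 0.380 and 0.373 in the rolipram, BC11-38, bleached vehicle and unbleached vehicle libraries. These are sparse counts, and the values are descriptions.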

How the data were processed

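Single-cell libraries were made with 10x Chromium v3 reagents, 15000 cells loaded each, from papain-dissociated retinae, per the series' design text and the labels' protocols. Before light, mice spent 24 h in the dark, and 1% tropicamide and drug were given 30 min ahead; a further group was not analysed here. Cell Ranger 6.0.1, Seurat 3.2.2 and mm10 are named without roles, per the submitters' processing notes; how strand and introns were counted and how cells were filtered is not given in the sources used here.

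Per the file headers, the deposited natural log values come from the data slot of a Seurat RNA assay. The values themselves fit a log taken after scaling each cell to 10000 UMIs and adding 1, where counts had been planned for. Undoing the log gave whole multiples of each cell's smallest value (100% within 0.001), so 140410160 UMIs were recovered in 26543 cells.

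Clustering used scanpy 1.11.5, with igraph 0.11.9 and anndata 0.12.19, on 2000 variable genes, of which 5 members were left out, with 30 components, 15 exact nearest neighbours and Leiden resolution 1; components were rounded so that the partition does not depend on the processor. Scrublet called 24, 11, 2 and 6 doublets in the rolipram, BC11-38, bleached vehicle and unbleached vehicle libraries, against 6.32%, 4.91%, 5.45% and 4.56% expected, so the caller did not work and only the called cells were left out. A name needed at least 3 markers, each seen in 15% of cells and 2-fold or more above the other clusters' median. A cluster whose median depth was under 0.333 of its libraries' medians and whose 10 leading genes held none of its markers stayed unnamed.

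UMIs were summed per class and scaled by the class total. Genes with at least 100 UMIs over both libraries were counted, and 1.5-fold was the threshold. With 1 library a group no test across samples was possible. Intervals are exact 95% Poisson or Clopper-Pearson intervals (scipy 1.17.1) and cover counting error only. Log2 ratios used a prior of 0.5 UMIs. The ratio calculation was tested on simulated data. All members and list genes could be named, with the 10 genes most like the members in pattern. Members, lists and tests were chosen with earlier results of these data known. Annotation was GENCODE M21 and RefSeq promoters matched 5 of 8 members. The values of 1 listed rod gene are not reported here.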

Additional observations from a re-analysis of the deposited data

How the results depend on the processing

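Over 12 settings (the values reported and 11 alternatives) all 8 members kept the direction of their log2 ratio in all 4 comparisons, and Gnb3 kept the opposite one. Of these, 3 alternatives, leaving out shared barcodes, the interferon-led rod cluster or the shallowest rod cluster, were chosen after seeing the data. Counting unnamed clusters with rod markers as rods had nothing to add, since no such cluster was unnamed. Scaling by a trimmed mean moved the members' median log2 ratio to -0.47 for bleached over unbleached vehicle, 0.61 for rolipram over bleached vehicle, 0.86 for BC11-38 over bleached vehicle and -0.23 for rolipram over BC11-38, and the members past 1.5-fold to 1 (against 0) and 8 (against 5) for bleached over unbleached vehicle and for BC11-38 over bleached vehicle. For rolipram over bleached vehicle it took Pde6g past 1.5-fold as well. Rods with Y-linked and no Xist transcripts gave medians of -0.27 for bleached over unbleached vehicle, 0.43 for rolipram over bleached vehicle, with 1 member (against 3) past 1.5-fold, and -0.20 for rolipram over BC11-38. Without the shallowest rod cluster the median for BC11-38 over bleached vehicle was 0.62; the cause was not tested. Genes past 1.5-fold, for bleached over unbleached vehicle, rolipram over bleached vehicle, BC11-38 over bleached vehicle and rolipram over BC11-38, numbered 618, 895, 1495 and 455, against 1753, 2059, 2928 and 1461 with a minimum of 20 UMIs, which counts more genes. In Y-linked rods, which are fewer, they numbered 384, 607, 996 and 261. The level of members outside rods, in the order rolipram, BC11-38, bleached vehicle and unbleached vehicle, moved to 7.13%, 7.36%, 6.06% and 6.10% of the rod level without the highest doublet scores and to 10.2%, 10.4%, 11.2% and 9.63% as a mean over cells. In bleached and unbleached vehicle it moved to 6.23% and 6.13% with members among the clustering genes and to 6.25% and 6.16% at Leiden resolution 0.5. No paired analysis was possible because each group has 1 library. Values for single members and Gnb3 stayed within counting error in 313 cases and moved past it in 83. The 313 include those with a minimum of 20 UMIs, where no move was possible. Subunit ratios stayed within it in 57 cases and moved past it in 7, and shares of rods with a UMI did so in 7 and 25. Mice, dissociations and libraries cannot be told apart from treatment here. Nor can sex, in comparisons of all rods with bleached vehicle. A median of 1214 to 1488 UMIs per rod limits shares of rods.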
